A study of Mus musculus with 11 samples.

Results

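The SH3RF genes encode a family of 3 ubiquitin ligases, Sh3rf1, Sh3rf2 and Sh3rf3, and all 3 were found by gene identifier among the 53465 genes of a quadriceps count table. Each protein carries a RING domain, the part that passes ubiquitin to a substrate, and several SH3 domains, which hold partner proteins. The family was selected on the p-value of the comparison between treated and untreated mice, which was smallest for Sh3rf2, so the values of Sh3rf2 in that comparison are given as a description and without a test. Sh3rf1 and Sh3rf3 were taken as its relatives, whatever their values.

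The libraries came from the quadriceps, a large thigh muscle, of aged mice whose genotype the labels write as C57L/6JRj. A group of 5 libraries came from mice given the solvent DMSO and a group of 6 from mice given myriocin, a fungal inhibitor of serine palmitoyltransferase, the first enzyme of sphingolipid synthesis. Treatment started at 18 months of age and went on for 10 weeks. The labels give no dose, no route and no sex, and they do not say whether each library is from a mouse of its own, so a p-value here speaks only of the spread among these libraries, which may be technical. Group values below are means ± SD over the 5 DMSO libraries (the controls) and the 6 myriocin libraries. The 10 fast fibre markers, which define most of this muscle, summed to 155000 to 184000 CPM (counts per 1000000 reads counted in genes) in every library.

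SH3RF1, also called POSH for its many SH3 domains, is a scaffold that brings the small GTPase Rac1 together with mixed-lineage kinases, the kinases MKK4 and MKK7 and the stress kinase JNK, and it also ubiquitinates several substrates. SH3RF2 has been reported to lower the amount of POSH and thereby JNK signalling, to bind protein phosphatase 1 and to stabilise the kinase PAK4. SH3RF3, or POSH2, is the least studied member and is also a Rac1-binding scaffold of the JNK pathway. These roles come mostly from cell lines and tissues other than skeletal muscle. They concern the amount, binding and activity of proteins, and only RNA was measured here.

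Sh3rf2 (ENSMUSG00000057719, chromosome 18 of GRCm38) was the main SH3RF transcript of this muscle, and its level was higher in most myriocin libraries. In DMSO replicates 1 to 5 it stood at 24.7, 32.1, 25.0, 23.8 and 21.9 CPM. In the 6 myriocin libraries the lowest value was 30.8, the median 37.9 and the highest 42.8 CPM. Myriocin replicate 4 was the highest library of all, and the groups overlapped on this scale, since DMSO replicate 2 lay above Myriocin replicate 1. The other 5 myriocin libraries lay above every DMSO library. In bulk tissue, fewer cells of a type and less RNA per cell cannot be told apart, and this holds for every level given here.

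Sh3rf2 averaged 25.5 ± 3.90 CPM in the controls (SD, n = 5) and 37.0 ± 4.38 CPM under myriocin (SD, n = 6). As a log2 difference fitted by edgeR, with controls subtracted, this came to 0.58 (standard error, SE, 0.10), a ratio of 1.49 whose 95% interval ran from 1.29 to 1.73. The interval does not allow for the choice of this gene as the first of 14117 by p-value. The next gene in that order, 2310015K22Rik, had 2.48 ± 0.324 CPM in the controls and 3.98 ± 0.612 CPM under myriocin, a log2 fold change of 0.72. Counts of Sh3rf2 ran from 488 to 975 reads per library. Counting error alone would give a coefficient of variation of 4.15% in the DMSO group and 3.43% in the myriocin group, against 15.3% and 11.8% observed, so depth was not what limited these values.

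Whether the groups parted completely at Sh3rf2 turned on how DMSO replicate 2 and Myriocin replicate 1 were scaled. After TMM scaling, which corrects library totals for differences in composition, DMSO replicate 2 had a factor of 1.065, the largest of the 11, and its Sh3rf2 level became 30.3 CPM. Myriocin replicate 1, with a factor of 0.979, became 31.5 CPM, so that on this scale all 6 myriocin libraries lay above all DMSO libraries. On the TMM scale 0.198% of the 14117 tested genes had every myriocin library above every DMSO library, and on plain CPM 0.0638%; in either direction the shares were 0.361% and 0.602%. Sh3rf2 belonged to the TMM set only, and nothing is read from this because the same comparison chose the gene. A log2 difference of at least this size, in either direction, was found for 269 genes (1.91%).

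**Figure D1:**
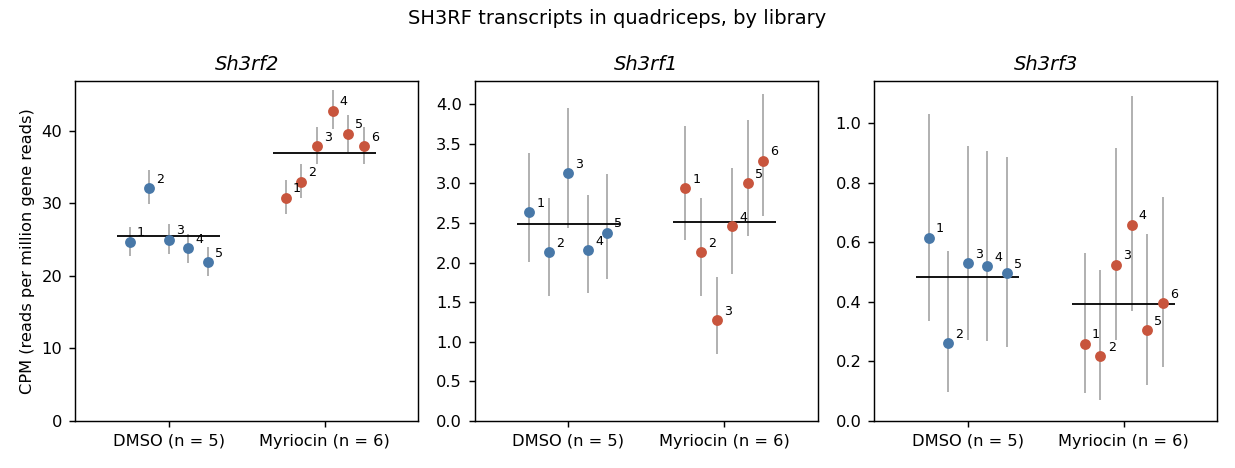
Level of each SH3RF gene in CPM (vertical axis, linear, a separate scale per gene) in the 5 DMSO and 6 myriocin libraries. Points are libraries labelled with their replicate number, grey bars are exact 95% Poisson intervals for counting error only, and black lines are group means; for Sh3rf2 DMSO replicate 2 at 32.1 CPM is the library that reaches into the myriocin range, while Sh3rf1 and Sh3rf3 overlap throughout.

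Sh3rf1 (ENSMUSG00000031642, GRCm38 chromosome 8, 61223872 to 61396071, plus strand), the JNK scaffold, was much scarcer, and its group means lay close together. In DMSO replicates 1 to 5 it stood at 2.64, 2.13, 3.13, 2.16 and 2.38 CPM. With myriocin its lowest value was 1.27, its median 2.70 and its highest 3.29 CPM, the low value belonging to Myriocin replicate 3. The ranges overlapped throughout. Sh3rf1 averaged 2.49 ± 0.411 CPM in the controls and 2.51 ± 0.738 CPM under myriocin, and the log2 fold change was 0.05 (SE 0.21), with edgeR's adjusted p = 0.982 over all genes. The 95% interval from -0.39 to 0.50 leaves room for a ratio between 0.761 and 1.41, so a difference within that range is not excluded. The interval is not a limit of detection for the adjusted test. The sign itself was not fixed, being negative without DMSO replicate 2 (-0.02) or Myriocin replicate 6 (-0.04), 0.00 without Myriocin replicate 1, and the value was 0.19 without Myriocin replicate 3.

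Sh3rf3 (ENSMUSG00000037990, GRCm38 chromosome 10, 58813359 to 59138916, plus strand) was close to the detection limit, with 5 to 15 reads per library. It stood at 0.615, 0.261, 0.529, 0.519 and 0.495 CPM in DMSO replicates 1 to 5. In the myriocin libraries the lowest value was 0.218, the median 0.350 and the highest 0.659 CPM. The ranges overlapped, with the extremes of all 11 libraries both in the myriocin group. The log2 fold change was -0.26 (SE 0.33; edgeR's adjusted p = 0.948), with a 95% interval from -0.96 to 0.44, and its size went from -0.14 without Myriocin replicate 2 to -0.48 without Myriocin replicate 4. The lowest library, with 5 reads, has an exact Poisson interval from 0.0707 to 0.508 CPM. The coefficient of variation expected from counting alone, 30.2% in the DMSO group, was as large as that observed (27.4%). In the myriocin group it was 33.3%, below the 43.2% observed.

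All 3 genes passed the filter on low counts. At an adjusted p under 0.05 edgeR's quasi-likelihood test called 0 of them, and 0% of the 14117 genes tested. An unadjusted p under 0.05 was found for 660 genes (4.68%) in edgeR, 2.33% of all genes being higher and 2.34% lower under myriocin. DESeq2 called 6 genes at the adjusted threshold (659 unadjusted), Sh3rf2 among them, from which nothing is read, and limma-voom called 0 (660 unadjusted). Neither Sh3rf1 nor Sh3rf3 was called by any of these tools.

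Read per kilobase of exon, a scale on which genes can be compared, Sh3rf2 made up nearly all of the family's transcripts. Its RPKM (CPM per kilobase of annotated exon) was 4.53 ± 0.692 in the controls and 6.57 ± 0.778 under myriocin. Sh3rf1 had 0.335 ± 0.0553 and 0.339 ± 0.0993 RPKM, and Sh3rf3 0.0668 ± 0.0183 and 0.0543 ± 0.0235 RPKM in the same groups. The order Sh3rf2, Sh3rf1, Sh3rf3 held in each of the 11 libraries, and neighbours in that order were far apart relative to their spread. Sh3rf2 took 91.7% ± 1.81 of the family's RPKM in the controls (90.0% to 94.6%) and 94.3% ± 1.38 under myriocin (92.7% to 96.5%). These shares overlapped between groups. The ratio of Sh3rf2 to Sh3rf1 ran from 10.5 to 19.9 with DMSO and from 13.8 to 39.4 with myriocin, the highest ratio being that of Myriocin replicate 3, where Sh3rf1 was lowest.

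The levels of the 3 genes showed little relation to each other from library to library. Over the 11 libraries, Pearson's r of the log2 CPM of Sh3rf2 was -0.06 with Sh3rf1 and -0.16 with Sh3rf3, and r was -0.06 between the last pair. After removal of the group means these values were -0.13, 0.19 and -0.07. They are descriptions over 11 libraries, and for Sh3rf3 counting noise limits what r could reach.

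**Figure D2:**
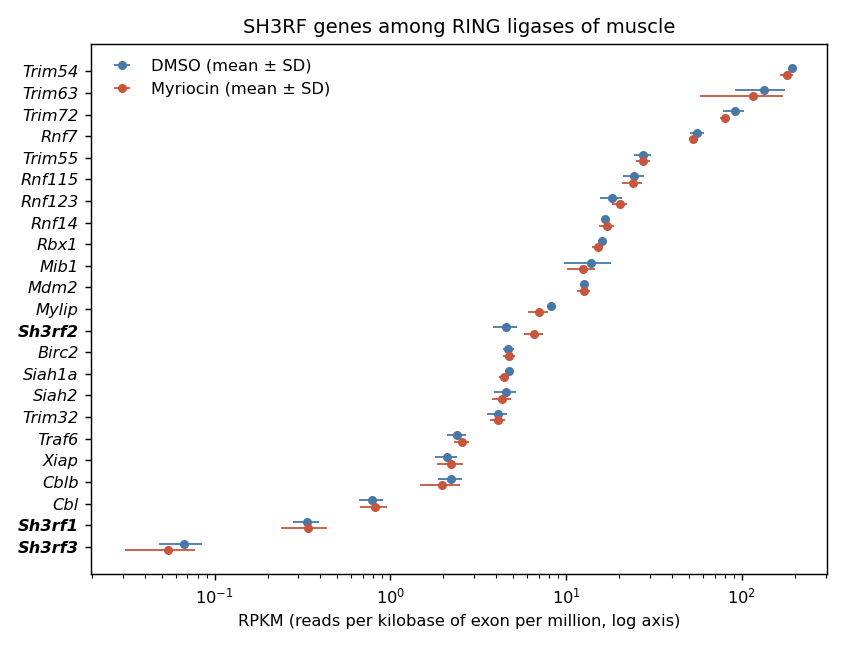
Mean RPKM (horizontal axis, logarithmic) of the 3 SH3RF genes, in bold, and 20 other RING ligase genes, ordered by their mean over all libraries; points are group means and bars SDs over 5 DMSO and 6 myriocin libraries. Sh3rf2 stands 13th of 23 next to Mylip above and Birc2 below, while Sh3rf1 and Sh3rf3 take the last 2 places. In the controls alone the mean of Sh3rf2 (4.53) lies below those of Birc2 (4.69) and Siah1a (4.70).

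Among RING-type ligases known from muscle, Sh3rf2 was a gene of middle rank. By mean RPKM over all 11 libraries, the myriocin group included, it stood 13th of 23 genes. Above it came Mylip, a ligase that acts on lipoprotein receptors (8.25 ± 0.471 RPKM in the controls). In the controls alone Sh3rf2 (4.53 ± 0.692 RPKM) had a lower mean than Birc2, an inhibitor of apoptosis (4.69 ± 0.332 RPKM). It was also lower there than Siah1a (4.70 ± 0.224 RPKM) and level with Siah2 (4.53 ± 0.627 RPKM), ligases of the Siah family. In the controls Sh3rf2, Birc2, Siah1a and Siah2 did not differ beyond their SDs. In the myriocin group Sh3rf2, at 6.57 ± 0.778 RPKM, lay above Birc2 (4.74 ± 0.381), Siah1a (4.45 ± 0.278) and Siah2 (4.30 ± 0.532) and within the spread of Mylip (6.98 ± 0.889). The sarcomere ligases Trim54 and Trim63 (MuRF1), at 193 ± 4.94 and 133 ± 42.2 RPKM in the controls, were far above the family. Over all tested genes with an annotated length, 69.3% had a lower RPKM than Sh3rf2, 13.2% a lower one than Sh3rf1 and 0.51% a lower one than Sh3rf3.

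Of these 20 other RING ligase genes, all tested, 10 had a positive log2 difference and 10 a negative one. Their median was -0.01 (0.01 without Myriocin replicate 5), beside -0.012 over all genes, of which 46.3% were positive, and 0 of the 20 passed the test. The smallest p belonged to Mylip (26.7 ± 1.52 CPM in the controls and 22.6 ± 2.87 CPM under myriocin; log2 difference -0.21, SE 0.08; -0.11 without the 3 libraries carrying liver transcripts), followed by Rnf123, the catalytic part of a complex that degrades the cell cycle inhibitor p27 (0.19, SE 0.09), and Trim72, a membrane repair protein (-0.15, SE 0.08; -0.08 without DMSO replicate 2, its highest library). Their adjusted p in edgeR was 0.936.

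The JNK cascade that the SH3RF proteins organise had no gene past the test. Of its 16 listed genes 15 were tested, Mapk10 having too few counts, and 8 were positive and 7 negative with a median of 0.09. That median was -0.01 without DMSO replicate 2 or without Myriocin replicate 1. Mapk9, which encodes the kinase JNK2, stood at 61.2 ± 3.06 CPM in the controls and 64.7 ± 4.89 CPM under myriocin, a log2 fold change of 0.12 (SE 0.06). Map2k4, the kinase MKK4 that activates JNK, had 0.12 (SE 0.07), and the kinase gene Map3k13 0.37 (SE 0.21), which was 0.18 without Myriocin replicate 3. For all of them edgeR's adjusted p was 0.936. Rac1, the GTPase that binds POSH, was at 152 ± 12.7 CPM in the controls and 147 ± 6.53 CPM under myriocin, with an interval of the log2 fold change from -0.14 to 0.12. Map3k11 (MLK3), a kinase that POSH holds, had an interval from -0.20 to 0.13. These last 2 genes were named for their role and outside the ranking by p.

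The list of JNK targets, which holds genes regulated by JNK and genes whose proteins JNK phosphorylates, was mixed in direction. Of 15 tested JNK target genes 7 were positive and 8 negative, with a median of -0.11. That median ran from -0.18 without Myriocin replicate 3 to 0.02 without Myriocin replicate 1, was 0.01 without DMSO replicate 2, DMSO replicate 4 or Myriocin replicate 2, and was 0.03 without the 3 libraries carrying liver transcripts. Bbc3, the apoptosis gene PUMA, stood at 3.53 ± 0.310 CPM in the controls and 2.70 ± 0.273 CPM under myriocin (log2 difference -0.35, SE 0.12). The 6 myriocin libraries were all below the controls for Bbc3 on plain CPM, at most 2.93 against at least 3.17 CPM. On this scale 0.602% of all tested genes had groups that did not overlap, and only 0.0638% had every myriocin library higher. Whether the groups overlap at Bbc3 after TMM scaling is not given here. Nfatc4, a transcription factor of calcineurin signalling, had -0.36 (SE 0.15), and Stmn2, a microtubule regulator phosphorylated by JNK, -0.40 (SE 0.17). These were the 3 genes of 15 with an unadjusted p under 0.05, which 4.68% of all tested genes had. The count was 1 without Myriocin replicate 6 and 2 in the fit blocked by replicate. The 3 genes' adjusted p in edgeR was 0.936.

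The 8 listed dual specificity phosphatases, several of which inactivate JNK, all had a log2 difference below 0, from -0.45 to -0.05, the median being -0.13. Over all tested genes 46.3% were positive and the median was -0.012. The median of the list was -0.01 without the 3 libraries carrying liver transcripts, and 0 of the 8 passed. Dusp2, expressed mainly in immune cells, was the only one with an unadjusted p under 0.05 in edgeR (1.33 ± 0.324 CPM in the controls and 0.946 ± 0.187 CPM under myriocin). That count was 0 in DESeq2 and limma-voom and in several fits with 1 library left out, and 2 in the fit blocked by replicate. Dusp8 (-0.16, SE 0.10; -0.10 without DMSO replicate 1) and Dusp4 (-0.24, SE 0.17; -0.15 without DMSO replicate 4 and -0.36 without DMSO replicate 5) came next, and edgeR's adjusted p was 0.936 for these 3 genes.

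**Figure D3:**
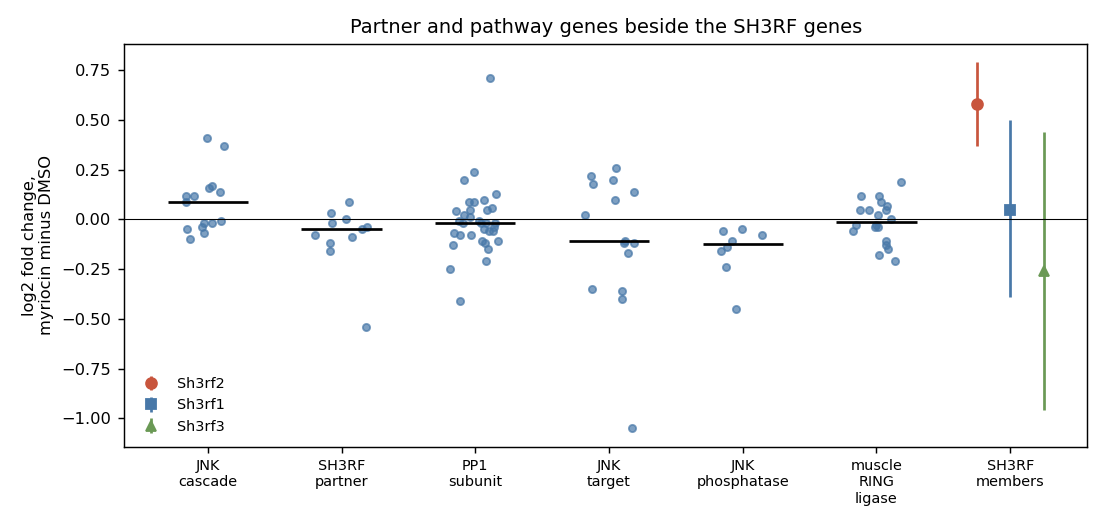
Log2 fold change, myriocin minus DMSO (vertical axis), of the tested genes of 6 lists, each point being a gene and each black line the list's median, beside the 3 SH3RF genes with their 95% intervals. Most list genes lie near 0 with medians from -0.13 to 0.09. Ppp1r3c at 0.71 is the list gene above Sh3rf2 at 0.58, and Fos at -1.05 (SE 0.60) is the lowest list gene.

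Transcripts of reported partners and substrates of the SH3RF proteins were also measured. Of 11 tested genes 2 were positive and 9 negative, beside 46.3% positive over all tested genes, and 0 passed. The median was -0.05, and went from -0.12 without DMSO replicate 5 to -0.02 without DMSO replicate 4 or Myriocin replicate 5. Shroom3, a regulator of cell shape that binds POSH, had the smallest p (3.22 ± 0.974 CPM in the controls and 2.15 ± 0.487 CPM under myriocin; log2 difference -0.54, SE 0.21). Akt2, a kinase of insulin signalling that binds POSH, had -0.12 (SE 0.07), and Ube2n, a ubiquitin-conjugating enzyme that builds lysine-63 chains, 0.09 (SE 0.07). Their adjusted p in edgeR was 0.936. Pak4, the kinase stabilised by SH3RF2, stood at 5.17 ± 0.656 CPM in the controls and 4.76 ± 0.307 CPM under myriocin, with an interval of the log2 fold change from -0.30 to 0.14.

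Protein phosphatase 1, which SH3RF2 binds, is made of a catalytic subunit and one of many regulatory subunits. Of 34 tested subunit genes 13 were positive and 21 negative, with a median of -0.02 (0.01 without DMSO replicate 2), and 0 passed. An unadjusted p under 0.05 was found for 2 of the 34, beside 4.68% of all tested genes, and for 0 without DMSO replicate 4 or DMSO replicate 5. Ppp1r3a, the main glycogen-targeting subunit of muscle, stood at 216 ± 32.3 CPM in the controls and 249 ± 36.9 CPM under myriocin (log2 difference 0.24, SE 0.11). Ppp1r3c, also a glycogen-targeting subunit, stood at 251 ± 35.9 and 401 ± 207 CPM (0.71, SE 0.31), but Myriocin replicate 1 alone reached 794 CPM, and without it the value was 0.39. Ppp1r27, a further regulatory subunit, had -0.25 (SE 0.12), and -0.09 without the 3 libraries carrying liver transcripts. For these 3 edgeR's adjusted p was 0.936. The catalytic subunits had intervals close to 0, from -0.18 to 0.15 for Ppp1ca, from -0.12 to 0.14 for Ppp1cb and from -0.03 to 0.20 for Ppp1cc. Ppp1ca and Siah1a each stand in more than one list and were counted in each.

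Of the 4 nearest protein-coding genes to Sh3rf2, Lars was the only one with more than 15 reads per library, and its group means lay close together. No annotated gene shares an exon base with Sh3rf2. Lars, the cytosolic leucyl-tRNA synthetase, stood at 48.6 ± 3.90 CPM in the controls and 47.4 ± 2.88 CPM under myriocin, with an interval of the log2 fold change from -0.13 to 0.14. Prelid2 had 6 to 15 reads per library and an interval from -0.80 to 0.38, its value going from -0.38 without Myriocin replicate 6 to -0.10 without Myriocin replicate 5. Plac8l1 had 0 counts in every library, which allows up to 0.135 CPM (3 counts), and Grxcr2 had at most 1. Of the nearest genes to Sh3rf1, Nek1 had a log2 difference of 0.10 (SE 0.13; 0.04 without DMSO replicate 5 and 0.19 without Myriocin replicate 4) and Cbr4 of 0.00 (SE 0.07), with no fixed sign for Cbr4, while the chloride-proton exchanger Clcn3 had a log2 fold change of 0.27 (SE 0.11) and the actin-associated Palld 0.17 (SE 0.08), with edgeR's adjusted p of 0.936 for both. Sh3rf1 shares 130 of its 7426 exon bases with the pseudogene Gm10015, which had at most 1 read. The antisense gene 1700001D01Rik and the pseudogene Gm7432 lie within the span of Sh3rf1, and the miRNA gene Gm27672 within that of Sh3rf3, with no exon base in common and at most 2 reads per library. Beside Sh3rf3, Edar had 1 to 7 reads, Gm17542 at most 1, Sept10 had 0.11 (SE 0.12; 0.04 without Myriocin replicate 1), and Sowahc had -0.59 (SE 0.34), or -0.06 without DMSO replicate 2.

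**Figure D4:**
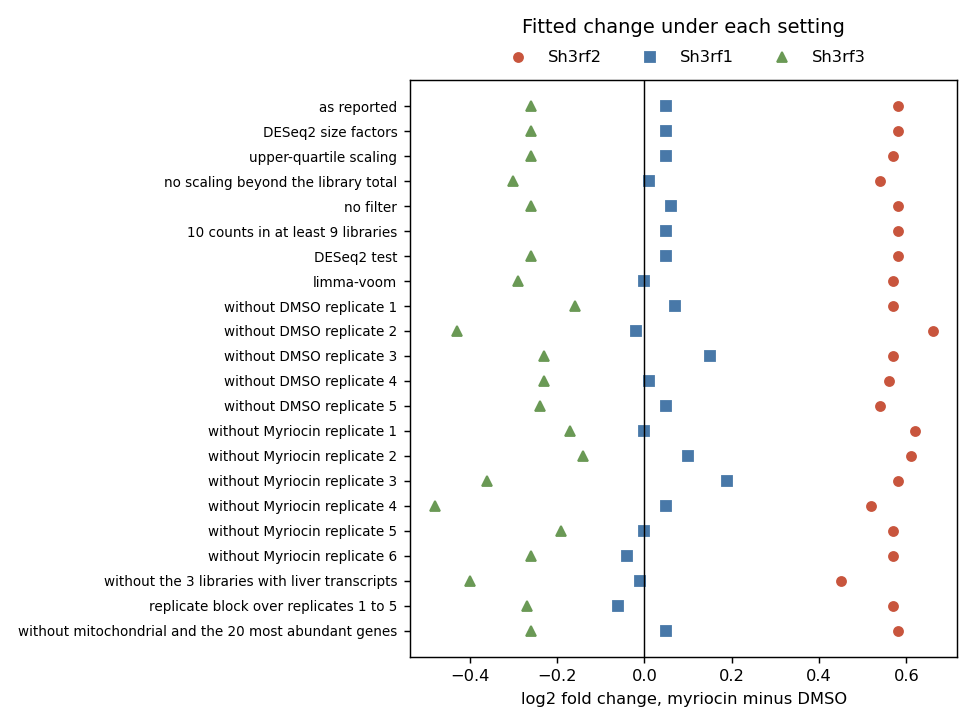
Fitted log2 fold change, myriocin minus DMSO (horizontal axis), of Sh3rf2 (circles), Sh3rf1 (squares) and Sh3rf3 (triangles) as reported and under each alternative setting (rows). Sh3rf2 stays between 0.45 and 0.66, Sh3rf1 scatters on both sides of 0, and Sh3rf3 stays between -0.48 and -0.14.

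The size of the Sh3rf2 difference with libraries left out is given as a description, since the same comparison chose the gene. It ran from 0.52 without Myriocin replicate 4 to 0.66 without DMSO replicate 2, the library that lay closest to the myriocin group. Albumin mRNA, a liver transcript, reached 85.6 CPM in DMSO replicate 4, 63.9 in DMSO replicate 5 and 73.7 in Myriocin replicate 4, against at most 20.6 CPM elsewhere. Without these 3 libraries the log2 fold change of Sh3rf2 was 0.45, the smallest value in any setting tried.

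Markers of cell types were compared as summed CPM. The 10 fast fibre markers summed to between 155000 and 174000 CPM (median 161000) with DMSO and between 169000 and 184000 CPM (median 174000) with myriocin, a log2 difference of 0.11, and 7 of the 10 were positive. Over the 11 libraries r between the log2 levels of Sh3rf2 (after TMM) and of this sum (plain CPM) was 0.73. This was the largest in size of the 14 cell type lists, the next being that of endothelium at -0.57. Such r include the group difference by which Sh3rf2 was chosen, and r without group means was not computed for these lists. Among DMSO libraries, replicate 4 had the highest fast fibre sum (173965 CPM) with Sh3rf2 at 23.8 CPM. DMSO replicate 2 had the highest Sh3rf2 of the controls (32.1 CPM) with a sum of 160611 CPM. The library highest in Sh3rf2, Myriocin replicate 4, was also the highest in this sum. Divided by the fast fibre sum, Sh3rf2 was 0.135 to 0.200 CPM per 1000 CPM of fast fibre markers in DMSO libraries and 0.182 to 0.235 in myriocin libraries. The 8 neuromuscular junction markers summed to 120 to 145 CPM with DMSO and 140 to 167 CPM with myriocin, and 7 of the 8 had positive values. The 8 endothelial markers were all negative, with sums of 290 to 329 CPM and 231 to 319 CPM. Of the other 11 lists, the summed level differed most for hepatocytes (log2 difference -0.97, 7 of 7 tested markers negative), neutrophils (-0.80, 4 of 4), adipocytes (-0.37, 5 of 6), tendon (-0.35, 5 of 6), slow fibres (-0.23, 7 of 9) and macrophages (-0.21, 6 of 8). Schwann cells had -0.15, smooth muscle and pericytes -0.04, satellite cells -0.06, fibro-adipogenic progenitors 0.00 and blood -0.03, with all 5 blood markers positive in the fit. No marker of the 14 lists passed the test, every sum overlapped between groups, and the part of these cells in the Sh3rf2 values was not tested.

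DMSO replicate 2, the library in which Sh3rf2 was highest among the controls, stood apart in its cell markers. Its 6 neutrophil markers summed to 462 CPM, against 3.15 to 26.8 CPM in the other DMSO libraries, its 8 macrophage markers to 315 CPM and its 7 adipocyte markers to 1310 CPM. Its hepatocyte marker sum, 218 CPM, was almost all Cyp2e1 (212 CPM), with albumin at 4.44 CPM. Their part in the Sh3rf2 level of that library was not tested. Sh3rf1 and Sh3rf3 were at the low end of the control group there, at 2.13 and 0.261 CPM.

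Of 11694 genes ranked by Pearson's r of log2 CPM to Sh3rf2 over the 11 libraries, the most alike was Hcn4, a hyperpolarisation-activated channel best known from the cardiac pacemaker, with r = 0.89. Hcn4 stood at 3.47, 3.75, 3.53, 2.99 and 2.52 CPM in DMSO replicates 1 to 5 and between 3.22 and 5.49 CPM with myriocin. As with Sh3rf2, DMSO replicate 2 was the highest control and Myriocin replicates 1 and 2 were the lowest of their group. After removal of the group means r was 0.82. Next came Ctnnbip1, an inhibitor of beta-catenin (r = 0.85, and 0.66 without group means), Ccdc122 (0.84 and 0.48), Ostn, which encodes the muscle-derived peptide musclin (0.83 and 0.55), and the RNA-binding protein gene Syncrip (0.83 and 0.81). On plain CPM r was 0.64 for Syncrip and 0.82 to 0.89 for the other 4.

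The most opposite genes were Sbds, a factor of ribosome maturation (r = -0.92, and -0.83 without group means), Tmem136 (-0.90 and -0.53) and Iba57, a mitochondrial iron-sulphur cluster protein (-0.90 and -0.77). Sbds stood at 25.3 ± 1.15 CPM in the controls and 21.8 ± 1.43 CPM under myriocin. These 8 genes were picked as the extremes of 11694, so high values of r are partly a matter of the choice, and the libraries share their depth and scaling. The r used for the ranking also includes the group difference by which Sh3rf2 was chosen. A group difference of these 8 genes is therefore no separate result. With edgeR's test 0 of the 8 passed over all genes, the smallest adjusted p being that of Tmem136 (0.619).

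**Figure D5:**
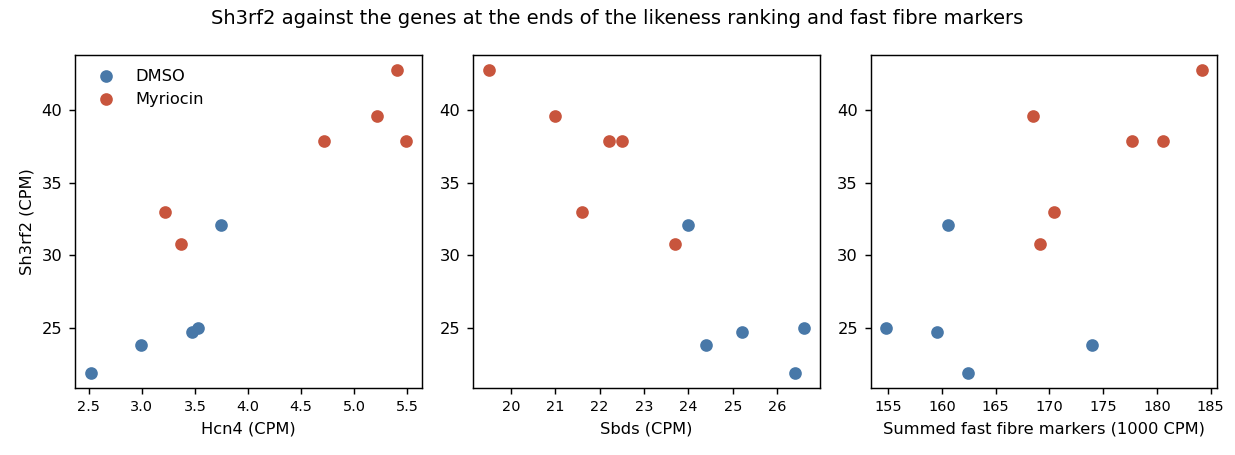
Sh3rf2 in CPM (vertical axis) against Hcn4 in CPM, Sbds in CPM and the summed level of 10 fast fibre markers in units of 1000 CPM (horizontal axes), each point being a library, blue for DMSO and red for myriocin. Sh3rf2 is high where Hcn4 is high and Sbds is low (r = 0.82 and -0.83 after removal of group means). Against the fast fibre sum r is 0.73 over all 11 libraries. That value includes the group difference, and r without group means was not computed for it.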

How the data were processed

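The deposited table holds raw read counts per Ensembl gene for 11 libraries. It was made by the authors with STAR 2.5.2b and HTSeq 0.6.0 on GRCm38, per the submitters' processing notes. Strandedness, annotation release and read filters: not given in the sources used here. Its 5 HTSeq summary lines, 24.8% to 28.2% of a library's reads, were left out. Gene totals were 22241131 to 23163721 reads per library. Symbols, positions and exon lengths (union over transcripts) came from GENCODE M21 on GRCm38, which matched 53360 of 53465 identifiers; RPKM depends on these lengths.

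CPM is counts per 1000000 gene reads, without further scaling unless TMM is named. The test was that of edgeR 4.0.16 (R 4.3.3): filterByExpr by group (minimum count 10, minimum total 15), TMM, robust quasi-likelihood F test with treatment as the factor, Benjamini-Hochberg adjustment over 14117 genes, threshold 0.05. The SE follows from the size of the log2 difference and its F statistic. DESeq2 1.42.0 and limma-voom (limma 3.58.1) ran on the same genes. Likeness used log2 CPM after TMM with a prior count of 2, over genes with a mean of at least 1 CPM.

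The members, gene lists and tests were chosen with earlier results of these data known. Named genes were the 3 members, the 3 of smallest p in each list, the neighbouring genes and the 5 most alike and 3 most opposite genes for each member. Rac1, Map3k11, Pak4 and the catalytic phosphatase subunits were added for their roles, Birc2, Siah1a, Siah2, Trim54 and Trim63 for their levels, and 2310015K22Rik, Alb, Cyp2e1 and Fos after their values were seen. A further planned list is not reported here. Intervals on counts cover counting error only. Alternatives covered scaling, filter, test, single libraries left out and the replicate number as a block.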

Additional observations from a re-analysis of the deposited data

Results flagged for a closer look

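Of 104 groups of values examined (52 quantities in 2 groups), 9 had a library whose gap to its nearest neighbour was large relative to the group's range; chance flags about 1 group in 20. None of the 9 was a value of an SH3RF gene. DMSO replicate 2 was the library set apart in 5 of them. There Trim72 reached 251 CPM, the next control having 202, and Sowahc 6.53 CPM, the next having 2.2. In the same library the summed macrophage markers reached 315 CPM, the neutrophil markers 462 CPM and the adipocyte markers 1310 CPM, against at most 216, 26.8 and 316 CPM in the other controls. Among myriocin libraries, Map3k13 was high in replicate 3 (2.62 CPM, next 1.64), Ppp1r3c was high in replicate 1 (794 CPM, next 410), Nek1 was low in replicate 4 (3.91 CPM, next 6.04), and the summed hepatocyte markers were high in replicate 4 (179 CPM, next 51.8).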

How the results depend on the processing

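The log2 fold change of Sh3rf2 kept its sign in all 21 alternatives, a description only, since the same comparison chose the gene. It ran from 0.45 without the 3 libraries with liver transcripts to 0.66 without DMSO replicate 2. That of Sh3rf1 lay from -0.04 to 0.19 when single libraries were left out, was -0.01 without the 3 libraries with liver transcripts and -0.06 with the replicate number as a block; none of its adjusted p-values was below 0.921. Sh3rf3 lay from -0.48 to -0.14 when single libraries were left out, and could not be fitted with the filter of 10 counts in at least 9 libraries, which removes it. The number of genes past the threshold was 0 in each alternative except DESeq2, which called 6, and no gene of the 6 lists passed in any alternative. The number with an unadjusted p under 0.05 in edgeR, 660 as reported, was less stable. It ran from 493 without Myriocin replicate 3 to 1449 without Myriocin replicate 4, and was 1022 without the 3 libraries with liver transcripts. Same-numbered libraries did not deviate from their group means together (correlations from -0.13 to 0.09). This gave no sign that the numbers pair libraries, but it cannot exclude a pairing, and the labels state none. With the replicate block, which uses 10 libraries, Sh3rf2 had 0.57, Sh3rf3 -0.27 and 0 genes passed. The share of Sh3rf2 in the family was 91.2% on CPM and 92.8% to 93.4% without single libraries, against 93.1%. The count of myriocin libraries above the highest control at Sh3rf2 was 5 on plain CPM and 6 with TMM, DESeq2 size factors or upper-quartile scaling, an alternative added after seeing the data. The neighbour Cbr4 had a log2 fold change of 0 that lay from -0.02 to 0.04 without single libraries and from -0.04 to 0.02 over the other alternatives. It was 0.02 without the liver-marked libraries, and 0 without the filter or with the block. Lars, also 0, lay from -0.03 to 0.03 without single libraries, was -0.03 without scaling or without the liver-marked libraries, and 0 with upper-quartile scaling. Depth limits Sh3rf3, at 5 to 15 reads per library, and not Sh3rf2.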

Other observations

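For the scarcer members the genes nearest in pattern, ranked in the same way over the 11 libraries, were others. Those most like Sh3rf1 were Ptprk, a receptor tyrosine phosphatase (r = 0.91), Afg3l2, a protease of the inner mitochondrial membrane (0.91), Adam11 (0.89), Klhl34 (0.89) and Rab11fip5, a partner of the recycling GTPase Rab11 (0.88). Those most opposite to Sh3rf1 were Zscan20 (-0.88), Morf4l2 (-0.85) and Fadd, an adaptor of death receptors (-0.83). After removal of the group means r lay at 0.88 or above for those 5 and at -0.85 or below for those 3. Since Sh3rf1 itself had a log2 fold change of 0.05, this removal could change r little. These genes were picked as the extremes of 11694, so high values of r are partly a matter of the choice. When single libraries were left out, the lowest r was 0.80 for Ptprk, 0.75 for Adam11 and 0.65 for Klhl34.

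Sh3rf3 was most like Igf1r, the receptor of insulin-like growth factor 1 (r = 0.91), Nup62, a nuclear pore protein (0.90), Sertad3 (0.88), Ppard, a nuclear receptor of fatty acids (0.87), and Pelp1 (0.87). It was most opposite to Epb41l3 (-0.91), Agbl3 (-0.89) and the kinase gene Yes1 (-0.88). These genes too were picked as extremes, here of 11695, so high values of r are partly a matter of the choice. On plain CPM r was 0.80 for Igf1r and 0.83 to 0.87 for the other genes most like Sh3rf3. Sh3rf3 had 5 to 15 reads per library, so its own values carry counting error as large as their spread in the DMSO group. In the myriocin group the counting error was smaller than the spread (33.3% against 43.2%).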
